A study of Saccharomyces cerevisiae S288C with 8 samples.

Results

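Cse4, the histone H3 variant of the budding yeast centromere, was mapped by ChIP-seq in wild type Saccharomyces cerevisiae either at its endogenous level or after overexpression from the GAL promoter, and the peaks of both strains are compared here. The members are all peaks in the lists of the libraries labelled as wild type endogenous Cse4 and wild type OE (overexpressed) Cse4. The endogenous list holds 811 peaks and the OE list 46, out of 3243 peaks in the 4 lists of the series, whose other lists are from cdc7-7 mutants of the replication kinase Cdc7. In each wild type list, exactly 16 peaks overlap an annotated centromere (CEN peaks), 1 per chromosome, which leaves 795 non-CEN peaks in the endogenous list and 30 in the OE list. The question was how the centromeric and the non-centromeric enrichment of Cse4 differ when a wild type strain makes more of it.

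The endogenous strain carries the genotype CSE4-HA in the labels, although the study's methods describe a Flag-tagged Cse4 under its own promoter, and both strains were precipitated with anti-FLAG M2 gel. The OE strain, labelled GAL-CSE4-FLAG and named GAL-FLAG-CSE4 in the study, carries a galactose-inducible copy integrated in the genome and was held in raffinose/galactose medium for 1.75 hr, whereas the endogenous strain grew in glucose. Expression of Cse4 and carbon source, and the tag too if the labels are right, therefore changed together and cannot be told apart in these libraries. Which tag the endogenous strain carries was not settled, and an endogenous Cse4 without Flag would change what its enrichment on this gel means. With this gel, the endogenous library had a peak at all 16 centromeres, with fold enrichments from 3.40 to 23.2. Both cultures were fixed with 1% formaldehyde for 20 min. Each strain gave 1 ChIP library and 1 input library, so no difference below can be set against a replicate error, and no test between the strains is given.

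Budding yeast has point centromeres, short sequences that hold a single nucleosome in which Cse4 takes the place of histone H3. Each is built from CDEI, a motif bound by Cbf1, an AT-rich stretch called CDEII that is wrapped on the Cse4 nucleosome, and CDEIII, a motif bound by the CBF3 complex, which recruits Cse4 through its chaperone Scm3. Excess Cse4 is removed by ubiquitin-dependent proteolysis, in part through the E3 ligase Psh1, and in cells that make too much of it Cse4 can enter chromatin elsewhere.

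CEN8, CEN13 and CEN9 are shown because they carry extremes of the comparison. CEN8 has the highest ratio of OE to endogenous enrichment, CEN13 has the second lowest ratio and is the strongest centromere of both lists, and CEN13 and CEN9 have the closest and the widest pairs of summits. They are printed on the strand that runs from CDEI to CDEIII, with CDEI and CDEIII in capitals and CDEII in lower case, from the S288C reference, build R64. CEN8 is at chrVIII:105586-105703 on the minus strand, and CEN13 at chrXIII:268031-268149 and CEN9 at chrIX:355629-355745 are on the plus strand.
CEN8: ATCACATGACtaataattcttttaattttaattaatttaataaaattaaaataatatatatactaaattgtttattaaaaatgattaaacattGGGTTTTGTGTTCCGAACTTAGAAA
CEN13: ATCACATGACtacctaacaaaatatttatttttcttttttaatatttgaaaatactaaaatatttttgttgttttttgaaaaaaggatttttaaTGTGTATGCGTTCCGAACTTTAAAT
CEN9: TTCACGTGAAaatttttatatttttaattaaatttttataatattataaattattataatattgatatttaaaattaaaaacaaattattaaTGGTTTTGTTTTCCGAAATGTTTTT

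CEN8 and CEN13 hold the letters TCACATG in CDEI and CEN9 holds TCACGTG. All of them share the letters TTCCGAA in CDEIII. Among all 16 centromeres, 8 hold TCACATG, 8 hold TCACGTG and 14 hold TTCCGAA, so neither form of CDEI is particular to the centromeres shown.

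Outside the centromeres, the strongest OE sites that the endogenous list does not hold are shown next, on the plus strand from 50 bases before to 50 bases after the summit, with runs of at least 6 A or 6 T in capitals. They lie at chrIV:1189667-1189767 between CNL1 and GGA1, at chrIV:1330562-1330662 between NPL3 and GPI17, and at chrVII:147699-147799 between CDC55 and RPS26A, all in intergenic DNA.
CNL1 to GGA1: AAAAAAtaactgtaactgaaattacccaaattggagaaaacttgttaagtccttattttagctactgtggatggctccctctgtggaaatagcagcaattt
NPL3 to GPI17: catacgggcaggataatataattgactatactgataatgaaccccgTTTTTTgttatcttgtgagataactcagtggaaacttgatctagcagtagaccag
CDC55 to RPS26A: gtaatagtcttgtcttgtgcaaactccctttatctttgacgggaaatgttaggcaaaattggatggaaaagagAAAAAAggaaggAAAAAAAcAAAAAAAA

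The AT content of these windows was 65.3%, 62.4% and 67.3%, in that order, against 83.9% for CEN8, 79.8% for CEN13 and 88.9% for CEN9. The nuclear genome as a whole has 61.7%.

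The libraries differed in depth. Enrichment and pileup are compared below with depth allowed for, whereas widths, summits and shares of genes are given as listed. No list states a number of fragments, so depth was read from the background expected at each summit, in fragments, which was solved together with the ChIP pileup (the number of fragments over the summit) from the fold enrichment and the -log10 p of the peak. Fold enrichment is the pileup over the background, each with 1 fragment added. At the CEN peaks, the median background was 200.3 fragments in the endogenous library and 37.9 in the OE library, so the OE library had 18.9% of the endogenous depth by this measure. Both how many fragments a library holds and how long they are enter this background, and the gap it gives is wider than the range of alignment numbers stated in the study's methods would allow for number alone. The shallower library needed a higher enrichment for a call: over the median non-CEN background, the weakest p in each list corresponded to a fold enrichment of 1.21 with endogenous Cse4 and of 1.65 with overexpressed Cse4. A peak that is present in the endogenous list and missing from the OE list can therefore have had the same enrichment in both.

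At the centromeres, fold enrichment was not higher in the OE list as a whole. The median over the 16 centromeres was 5.45 with endogenous Cse4, ranging from 3.40 to 23.2, and 5.18 with overexpressed Cse4, ranging from 3.13 to 15.0. The median ratio of OE to endogenous fold enrichment was 0.919, and 4 of the 16 centromeres had the higher value in the OE list. Summed over all pairs after scaling for background, the OE signal was 0.830 of the endogenous signal, with a 95% interval from 0.802 to 0.858 that covers counting error only. CEN13 and CEN4 have the largest pileups and weigh most in this sum. Each signal is relative to the background of its own library, so the ratio gives no amount of Cse4 at the centromeres. Taken singly, 5 centromeres had an interval below 1, 9 an interval that held 1 and 2 an interval above 1. The ChIP pileups themselves, with medians of 1097 and 207.5 fragments, are not on 1 scale. The endogenous pileups, all scaled by the 1 depth ratio of 18.9%, had a median of 207.5, while single centromeres departed from their scaled value in both directions.

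**Figure D1:**
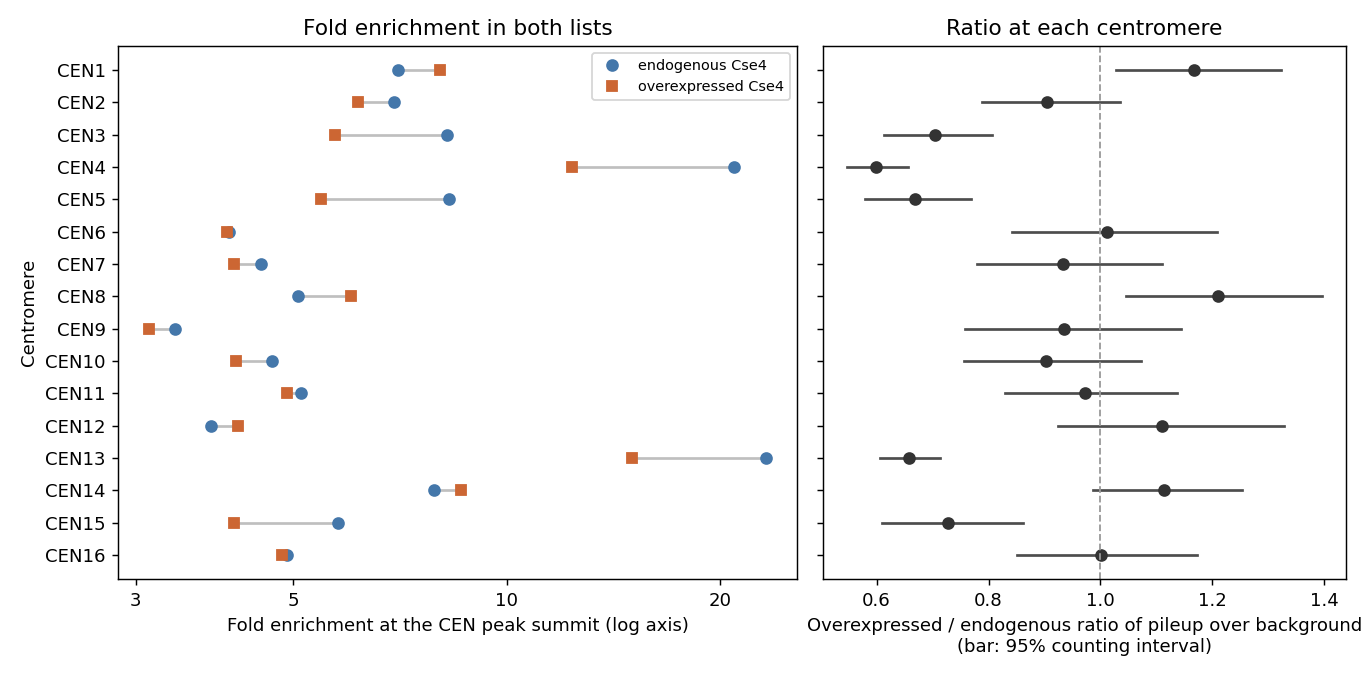
Left, fold enrichment at the summit of the CEN peak (log axis) for endogenous (circles) and overexpressed (squares) Cse4 at each centromere; right, the ratio of OE to endogenous pileup over background (dots) with its 95% counting interval (bars) and a dashed line at 1. The bars of CEN3, CEN4, CEN5, CEN13 and CEN15 lie below 1, those of CEN1 and CEN8 lie above 1, and the other 9 cross it.

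The largest departures were at the strongest centromeres. CEN13 had a fold enrichment of 23.2 from 5332 fragments with endogenous Cse4 and of 15.0 from 673 fragments with overexpressed Cse4. Its endogenous pileup scaled by the depth ratio was 1008 fragments. CEN4 had 20.9 from 4290 fragments against 12.3 from 538, with a scaled endogenous pileup of 811. This scaling uses 1 depth ratio for all centromeres, whereas the ratios of pileup over background use the backgrounds of each. CEN13 and CEN4 remained the highest and the second highest centromeres of both lists, but stood less far above the others after overexpression. CEN5 had 8.30 and 5.46, from 1826 and 225 fragments. CEN3 had 8.25 and 5.72, from 1820 and 237 fragments, and CEN15 had 5.78 and 4.13, from 1089 and 154 fragments. At these 5 centromeres the ratio of pileup over background was between 0.599 (CEN4) and 0.727 (CEN15), and its counting interval lay below 1 throughout. Without CEN4 and CEN13 the median ratio of fold enrichment was 0.939.

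CEN1 and CEN8 went the other way. CEN1 had a fold enrichment of 7.03 with endogenous and 8.06 with overexpressed Cse4, from 1419 and 302 fragments, and its ratio of pileup over background had an interval from 1.03 to 1.32. CEN8 had 5.07 and 6.03, from 1081 and 234 fragments, with an interval from 1.05 to 1.40. CEN14 and CEN12 also had the higher value in the OE list, with 7.89 and 8.63 at CEN14 and 3.83 and 4.18 at CEN12, and here the interval held 1.

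At the remaining 7 centromeres the counting interval of the ratio held 1. CEN2 had a fold enrichment of 6.93 with endogenous and 6.16 with overexpressed Cse4, from 1393 and 251 fragments. CEN11 had 5.12 and 4.90, CEN16 had 4.89 and 4.82, and CEN10 had 4.67 and 4.15. Their OE pileups, between 155 and 190 fragments, leave intervals on the ratio such as 0.757 to 1.07 at CEN10. CEN7 had 4.50 and 4.13, CEN6 had 4.06 and 4.04, and CEN9, the weakest centromere in both lists, had 3.40 and 3.13 from 645 and 112 fragments. The order of the centromeres was largely kept, with a Pearson r of 0.927 between the log2 fold enrichments and a Spearman rho of 0.844 over the 16 centromeres. These describe points that share a library on each axis, and carry no test.

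The CEN peaks were narrower after overexpression at all 16 centromeres. Median width was 1300.5 bp with endogenous and 837 bp with overexpressed Cse4, and the ratio of OE to endogenous width had a median of 0.633. The smallest ratio was at CEN8, where the endogenous peak spanned 2436 bp and the OE peak 802 bp, and the largest at CEN4, with 915 and 755 bp. In 15 of the 16 pairs the OE peak lay wholly within the endogenous peak, and at CEN15 it reached 5 bp beyond it. The widest endogenous peak was at CEN6, with 2816 bp against 1092 bp in the OE list. Depth moved with these widths, as the edge of a peak is where the enrichment stops passing the threshold, and its part in the difference was not tested. The median CEN width was 1251 bp in the cdc7-7 endogenous list, at a median background of 76.2 fragments, and 1338 bp in the cdc7-7 OE list, at 146 fragments.

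The endogenous peaks were wider on both sides by the medians, with long tails at some centromeres. On the CDEIII side, the endogenous peaks of CEN5, CEN6, CEN7 and CEN8 reached 1461, 1453, 1443 and 1732 bp beyond the centromere, while the OE peaks reached 480, 600, 300 and 353 bp. Over all 16 centromeres, the endogenous peaks ended a median of 533 bp beyond CDEIII and 579.5 bp beyond CDEI, and the OE peaks 354.5 and 346.5 bp. CEN2 and CEN12 had their longer endogenous tail on the CDEI side, with 985 and 794 bp against 429 and 183 bp in the OE list. CEN6 was wide on both sides and reached 1245 bp beyond CDEI, against 374 bp in the OE list.

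**Figure D2:**
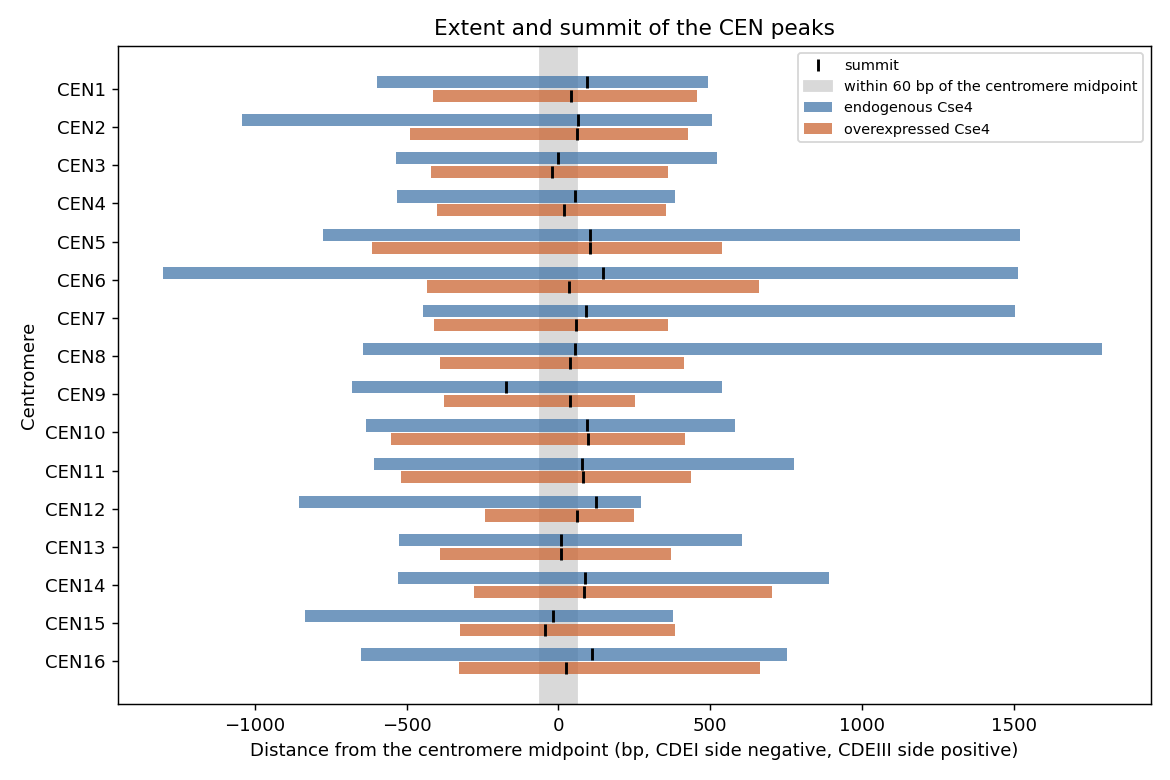
Extent of the CEN peaks (bars) and their summits (black ticks) in bp from the midpoint of each centromere, with the CDEI side to the left and the CDEIII side to the right, for endogenous (blue) and overexpressed (orange) Cse4. The orange bar is shorter at all 16 centromeres, and the widest gap between summits is at CEN9.

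Summits were close in most pairs. The median distance between the endogenous and the OE summit was 24 bp, and 6 of the 16 pairs lay within 5 bp, at CEN2, CEN5, CEN10, CEN11, CEN13 and CEN14. The closest pair was at CEN13, with 1 bp, and the widest at CEN9, with 210 bp, where the endogenous summit lay 114 bp outside the centromere on the CDEI side and the OE summit inside it. CEN6, with 113 bp, and CEN16, with 86 bp, were the next widest. CEN9 and CEN6 are among the weakest centromeres of both lists.

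With overexpressed Cse4, 10 of the 16 summits fell inside the annotated centromere, and the farthest lay 44 bp outside it. With endogenous Cse4, 5 fell inside, and the farthest lay 114 bp outside. The OE summit was the nearer of the pair at 9 centromeres and the endogenous summit at 2. In both lists most summits lay on the CDEIII side of the midpoint, 14 of 16 with overexpressed and 13 of 16 with endogenous Cse4, and the median offset from the midpoint toward CDEIII was 40.25 bp and 83 bp.

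Away from the centromeres, the OE list holds few sites, all weaker than its centromeres. The 30 non-CEN sites covered 14106 bp, or 0.117% of the nuclear genome, with a median width of 387.5 bp and a median fold enrichment of 1.94. Their fold enrichment ran from 1.63 to 2.46 and stayed below the weakest OE centromere, CEN9 with 3.13. In the endogenous list the 795 non-CEN peaks covered 426444 bp, or 3.53% of the genome, with a median fold enrichment of 1.38 and a highest value of 2.43. The lower median of the endogenous list goes with its lower threshold for a call.

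Of the 30 OE sites, 16 overlapped an endogenous peak by at least 1 bp, which is 53.3% with a 95% Wilson interval from 36.1% to 69.8%. For comparison, an endogenous peak overlaps 6.25% of all genome windows of 387 bp. In the other direction, 14 of the 795 endogenous non-CEN peaks were held by the OE list, or 1.76% (1.05% to 2.93%), against 0.386% of all windows of 420 bp. Both window shares also count windows that a CEN peak overlaps, which the non-CEN counts leave out. The numbers 16 and 14 differ because 3 OE sites at PMA1 fall in 1 endogenous peak. At the 16 shared sites, the ratio of OE to endogenous fold enrichment had a median of 1.18 and ranged from 0.807 to 1.52, with the OE value higher at 11 and lower at 5. Since a site entered the OE list only at about 1.65 and the endogenous list already at about 1.21, this count favors higher OE values by the way the sites were found. The summits of the shared pairs lay within 50 bp of each other at 8 of 16 sites. Each ratio compares the values at the summits of its pair, which lay up to 1292 bp apart. The 3 PMA1 sites are all among the 5 with the lower OE value, each set against the same endogenous summit.

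**Figure D3:**
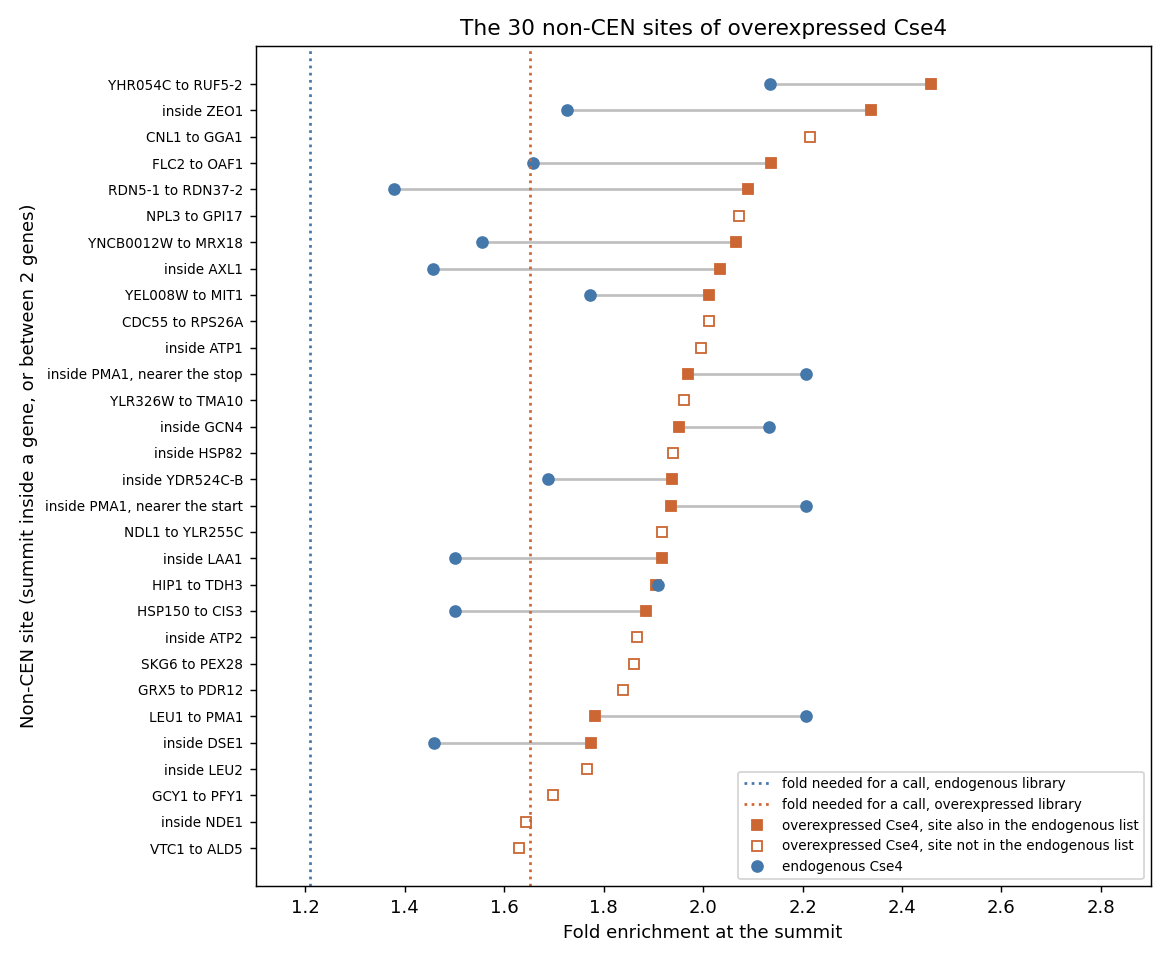
Fold enrichment at the summit of the 30 non-CEN sites of overexpressed Cse4 (squares, filled where the endogenous list holds the site), with the endogenous value (circles) for the 16 shared sites. Dotted lines mark the fold enrichment needed for a call over the median background, 1.21 in the endogenous and 1.65 in the OE library, and 11 of the 16 circles lie to the left of their square.

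The CUP1 and ribosomal DNA repeats each hold a shared site. The strongest non-CEN site of the OE list lies on chromosome VIII from 214018 to 214414, between YHR054C and RUF5-2 in the tandem array that carries the copper metallothionein gene CUP1. It had a fold enrichment of 2.46 from 445 fragments over a background of 180 with overexpressed Cse4, and of 2.13 from 1690 fragments over 791 with endogenous Cse4, with summits 1 bp apart. The OE background was 4.74 times the median of its list, and 16.95% of the 50-mers in the site occur once in the genome. The ribosomal DNA site, on chromosome XII from 459491 to 460817 in the spacer between the 5S gene RDN5-1 and the 35S unit RDN37-2, had a fold enrichment of 2.09 against 1.38 with endogenous Cse4. Its pileup could not be solved in either list, and 63.0% of its 50-mers occur once. A difference in repeat number between the strains was not tested at either site. In 27 of the 30 sites every 50-mer occurs once.

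Among shared sites in unique DNA, ZEO1, which encodes a membrane protein of the cell wall integrity pathway, had the highest fold enrichment, 2.34 from 91 fragments against 1.73 from 330 fragments with endogenous Cse4. Its summits lay 177 bp apart. The site upstream of OAF1, the oleate-activated transcription factor, had 2.14 from 74 fragments against 1.66 from 280, and its summits fell on the same base, position 48526 of chromosome I. The site between the leucine tRNA gene YNCB0012W and MRX18 had 2.07 against 1.55. The site in AXL1, a protease that matures the mating pheromone a-factor, had 2.03 against 1.46, with summits 347 bp apart. At these 4 sites the OE value was the higher, from pileups of at most 91 fragments.

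Neighboring sites lie close to CEN5 on chromosome V, between YEL008W and MIT1, a regulator of pseudohyphal growth, 10.7 kb from the centromere, and in GCN4, the activator of amino acid biosynthesis genes, 12.6 kb from it. The MIT1 site had a fold enrichment of 2.01 against 1.77 with endogenous Cse4, and the GCN4 site 1.95 against 2.13. Near CEN7, 3 OE sites lie at PMA1, which encodes the plasma membrane proton pump. Those inside the gene had fold enrichments of 1.97 and 1.93, and the site just past its 3' end, toward LEU1, had 1.78. The endogenous list has a single peak of 3140 bp over all of them, from 479547 to 482686, with a fold enrichment of 2.21. At GCN4 the endogenous value was thus the higher, with summits 29 bp apart. At PMA1 the 1 endogenous summit value was above all 3 OE values. The OE summits lay 243, 1077 and 1292 bp from that summit, and endogenous enrichment at their positions is not listed. Altogether 6 of the 30 sites lie within 50 kb of a centromere, which adds the unshared LEU2 site to these 5. The share of the genome this near to a centromere was not computed, and 3 of the 6 sites are at PMA1. The count is therefore no measure of clustering near centromeres.

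The last shared sites had OE fold enrichments from 1.77 to 1.94. YDR524C-B, which encodes a small protein, had 1.94 against 1.69 with endogenous Cse4, and LAA1, an accessory protein of the AP-1 clathrin adaptor, had 1.92 against 1.502. The site at the 3' end of TDH3, the main glyceraldehyde-3-phosphate dehydrogenase, facing the histidine permease gene HIP1, had 1.91 in both lists. Its summits lay 272 bp apart. The site between HSP150 and CIS3, which both encode mannoproteins of the cell wall, had 1.88 and exceeded the endogenous value by a ratio of 1.26. Here the summits lay 540 bp apart, with the endogenous one inside CIS3. DSE1, a daughter cell-specific gene, had 1.77 from 61 fragments, the smallest pileup of the 30 sites, against 1.46.

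The other 14 sites were found only in the OE list of this pair. The same fold enrichment over the median endogenous non-CEN background would have given a -log10 p between 15.6 and 48.1, against 2.71 for the weakest endogenous peak. That all 14 pass follows from the higher threshold by which they entered the OE list, and their OE values were selected for being high, so this says only that the endogenous library was deep enough for a site of that enrichment. None of the 14 was in the cdc7-7 endogenous list either, which overlaps 1.49% of windows of 387 bp, and 9 were in the cdc7-7 OE list, which overlaps 17.4%. Of the 16 shared sites, 12 were in the cdc7-7 endogenous list and 11 in the cdc7-7 OE list. Overexpression, the galactose medium and, if the labels are right, the tag differed together, and their parts in the 14 sites cannot be told apart. Their OE fold enrichments had a median of 1.89 and rested on 64 to 89 fragments, apart from LEU2.

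**Figure D4:**
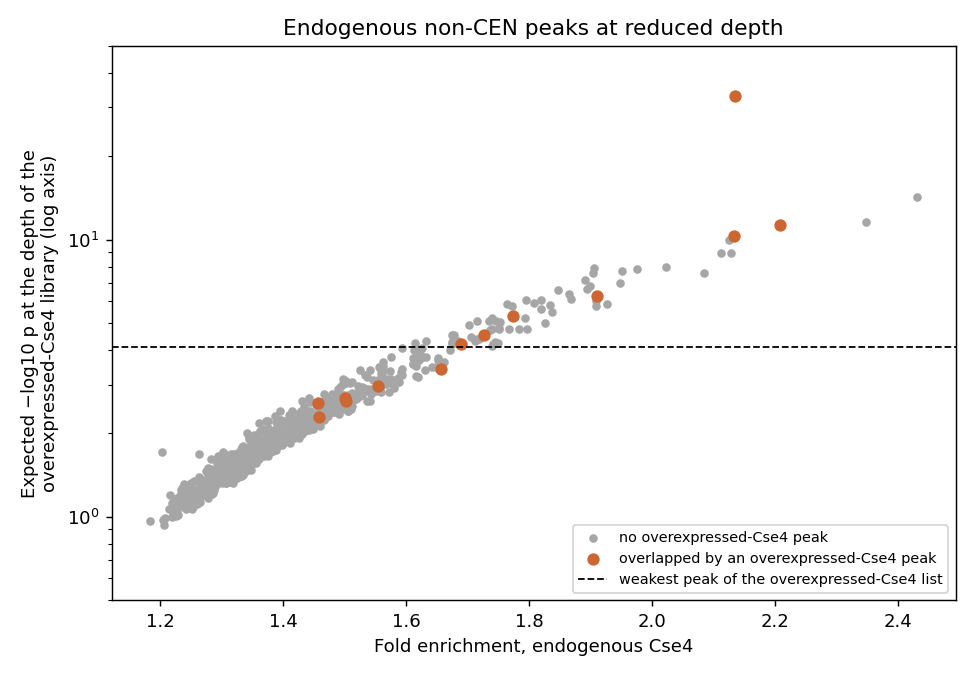
Endogenous non-CEN peaks by fold enrichment (x axis) and the -log10 p expected if their pileup and background were scaled to the depth of the OE library (y axis, log), with the peaks that an OE peak overlaps in orange. The dashed line is the weakest peak of the OE list, and 67 endogenous peaks lie above it, of which 7 are orange.

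The strongest of the 14 lie between genes, and their sequences are given above. CNL1, a subunit of the BLOC-1 complex of endosomes, and GGA1, a clathrin adaptor of the Golgi, are divergent genes, and the site between them, 150 bp upstream of the CNL1 start codon, had a fold enrichment of 2.21 from 87 fragments over a background of 38.7. The nearest endogenous peak was 5233 bp away. The site between NPL3, an RNA-binding protein of mRNA export, and GPI17, a subunit of the GPI transamidase, had 2.07 from 71 fragments over 33.7, with an endogenous peak 474 bp away. The site between CDC55, a regulatory subunit of protein phosphatase 2A, and RPS26A, a ribosomal protein gene, had 2.01 from 72 fragments over 35.3, with an endogenous peak 411 bp away.

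Several lie in or beside genes of mitochondria. ATP1 and ATP2 encode the alpha and beta subunits of the mitochondrial ATP synthase, and the sites inside them had fold enrichments of 2.00 and 1.87, from 71 and 72 fragments. At ATP1 the nearest endogenous peak was 228 bp away, and at ATP2 3377 bp. NDE1, the external NADH dehydrogenase of mitochondria, had 1.64 from 67 fragments. The site past the 3' end of GRX5, a mitochondrial glutaredoxin, facing the weak acid transporter gene PDR12, had 1.84 from 71 fragments, and the site upstream of ALD5, a mitochondrial aldehyde dehydrogenase, next to the polyphosphate synthesis gene VTC1, had 1.63 from 64 fragments and was the weakest of all 30. These genes were grouped after the sites were known, so the group is a description of the list.

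The rest lie at genes of varied roles. The site between YLR326W and TMA10, a ribosome-associated protein, had a fold enrichment of 1.962 from 89 fragments, and the site in HSP82, an Hsp90 chaperone, had 1.94 from 68. The site upstream of NDL1, a regulator of dynein, next to YLR255C, had 1.92 from 70 fragments, and that between SKG6 and PEX28, a peroxisome gene, had 1.86 from 64. The site between the 3' ends of GCY1, a glycerol dehydrogenase whose expression galactose induces, and of profilin (PFY1) had 1.70 from 73 fragments. Their 95% Poisson intervals are wide, from 49.3 to 81.7 fragments at PEX28, against an expected background of 33.9.

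LEU2 stands apart from the other 13. It encodes an enzyme of leucine synthesis and is widely used as a plasmid marker. The OE peak, on chromosome III from 91082 to 91717 inside the gene, had a fold enrichment of 1.77 from 245 fragments over a background of 138, which is 3.63 times the median background of the list. The cdc7-7 OE list has a peak there too, with 1193 fragments over a background of 580, or 4.09 times its own median, and neither endogenous list has a peak in LEU2. The copy number of LEU2 in the strains was not tested.

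The reverse comparison is the larger one, because most endogenous non-CEN peaks are missing from the OE list. Scaled to the depth of the OE library, 67 of the 795 endogenous peaks, or 8.43%, would pass the weakest p of the OE list. Of these 67, the OE list holds 7, or 10.4% with an interval from 5.15% to 20.0%, and lacks 60. Among the other endogenous peaks 6 were held, and the ribosomal DNA peak was held but not solved. Counted as a sum of binomial probabilities over all peaks, which gives each weaker peak its share, 115 peaks would be expected, against 14 held. Of the 67 peaks, 57 have their summit inside a protein-coding gene, against 503 of all 795. At ribosomal protein genes are 31 of the 67 (46.3%), none of which the OE list holds, against 134 of all 795 (16.9%).

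Of the 10 strongest endogenous peaks that the OE list lacks, 9 are described here. YEF3, which encodes translation elongation factor 3, had the highest non-CEN fold enrichment of the list, 2.43 from 528 fragments, and at OE depth 99.9 fragments over a background of 41.0 would be expected where 67 suffice. RPL8A followed with 2.35, and RPL10 and RPL3, which also encode ribosomal proteins, had 2.13 and 1.95. CDC19, the main pyruvate kinase, had 2.11. The site between TEF1, which encodes elongation factor 1 alpha, and GRS2 had 2.08. NSR1, a nucleolar protein of ribosome synthesis, had 2.02, ILV5, an enzyme of branched amino acid synthesis, had 1.98, and LSR1, the U2 spliceosomal RNA, had 1.95. At each of these 9 the expected -log10 p at OE depth was between 6.96 and 14.3, above the 4.09 of the weakest OE peak.

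Few genes of any list had an OE peak. Among all 6002 protein-coding genes, 19.8% had an endogenous non-CEN peak in the gene or the 1000 bp upstream of it, and 0.683%, or 41 genes, had an OE non-CEN peak. Of 137 ribosomal protein genes, 120 had an endogenous peak (87.6%) and none an OE peak. Of 19 genes of glycolysis and fermentation, 13 had an endogenous peak, among them ENO2, FBA1, PGK1 and ADH1, and TDH3 alone had an OE peak. Of 9 translation elongation genes, 6 had an endogenous peak and none an OE peak. Since an OE peak is rare in any gene, an absence in a list of this size differs little from the 0.683% of all genes. That share takes no account of which genes have endogenous peaks. At ribosomal protein genes, 31 endogenous peaks would pass at OE depth, as given above, and the OE list holds none of these.

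The galactose genes were examined because the OE strain grew in galactose. Of 8 genes, GAL3, the galactose sensor, had an endogenous peak with a fold enrichment of 1.49, and none, GAL1, GAL7 and GAL10 included, had an OE peak. GCY1, which galactose also induces and which has an OE site, is not among the 8. For all protein-coding genes, the share with an endogenous peak was 19.8%. Of 12 genes of the inner kinetochore and the Cse4 pathway, CSE4 itself, its chaperone SCM3 and the CBF3 genes CBF2 and CTF13 had endogenous peaks, with fold enrichments from 1.26 to 1.36, and none had an OE peak. At CSE4, the endogenous peak had 444 fragments at a fold enrichment of 1.26. That is below the median of 1.38 of the endogenous non-CEN peaks, so its background was high too. Of 275 tRNA genes, 32 (11.6%) had an endogenous and 1 (0.364%) an OE peak. None of 352 origins and none of 434 LTR and Ty elements had an OE peak, against 15 (4.26%) and 13 (3.00%) with an endogenous peak. For comparison, an endogenous peak overlaps 6.25% of all genome windows of 387 bp, and an OE peak 0.386% of all windows of 420 bp. The features differ in length from these windows, and so few OE peaks are too rare for their absence here to tell anything.

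The OE sites lay both inside and between genes. By summit, 13 of the 30 OE sites (43.3%, interval 27.4% to 60.8%) lay inside a gene. Another 3 (10%) lay between divergent, 8 (26.7%) between tandem and 6 (20%) between convergent genes. Of the 795 endogenous non-CEN peaks, 522 (65.7%) lay inside a gene of any kind. Inside a protein-coding gene lay 503 (63.3%, interval 59.9% to 66.6%). Between divergent genes lay 105 (13.2%), between tandem genes 150 (18.9%) and between convergent genes 18 (2.26%). The share of the genome in each kind of spacer was not computed. Protein-coding genes make up 72.8% of the genome. The convergent OE sites are at RDN5-1, TMA10, TDH3, CIS3, GRX5 and GCY1. The summits of 8 OE sites lay within 500 bp upstream of the nearest start codon (26.7%), 4 of them shared and 4 not, against 209 of the 795 endogenous peaks (26.3%) and 18.4% of genome positions sampled every 100 bp. The sites were spread over 12 chromosomes, with 5 on chromosome VII, 4 on V and none on VI, IX, XI and XIV.

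No OE site resembled a centromere in the letters searched. On either strand and up to 150 bp to each side of the summit, the CDEI letters TCACGTG were found in 0 of the 30 sites, against 1.27% of all genome windows of that length. The other CDEI form, TCACATG, was found in 0, against 2.34%, and the CDEIII letters TTCCGAA in 0, against 3.58%. The absence says only that these letters are not in these windows. The AT content of the sites had a median of 63.2%, from 56.8% to 68.3%, and 18 of the 30 lay above the genome average. A run of at least 6 A or 6 T lay within 50 bp of the summit in 10 sites (33.3%), 5 shared and 5 not, against 20.0% of all windows of that length.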

How the data were processed

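Cse4 ChIP-seq of wild type strains with endogenous or overexpressed Cse4 was analysed, with 1 ChIP and 1 input library per strain, grouped by their labels. The authors aligned paired reads to S288C (build R64) with Bowtie 1.0.0, keeping reads with 1 reportable position, removed duplicates with SAMtools, down sampled the inputs and ran MACS separately on every ChIP library, with the input of the same strain as control and without pooling. The deposited lists give positions, fold enrichment (a ratio with a pseudocount of 1) and -log10 p and -log10 q values at the summit. Alignments and coverage were not analysed here.

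The pileup x, a whole number, and the background lambda were solved from the fold, (x + 1)/(lambda + 1), and the Poisson -log10 p. A solution was accepted if its error in -log10 p was under 0.1 of that of the runner-up, which solved 810 of 811 and 45 of 46 peaks, and the solver was tested on simulated data. A peak was counted as held by another list from an overlap of 1 bp. Depth was the median solved background at the CEN peaks, and pileup and background were scaled by its ratio. Intervals (95%) are Wilson for shares, exact Poisson for pileups and conditional binomial for ratios, with the background taken as known, and cover counting error only. Windows tiled the 16 nuclear chromosomes (12071326 bp). Genes, centromeres and sequences came from the R64 annotation and genome, and positions are 1-based.

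The members and gene lists were chosen with earlier results of these data known. The text names the 16 centromeres, all 30 OE non-CEN sites and the 10 strongest endogenous peaks that the OE list lacks. Sequences shown are those of the centromeres with the highest and the 2 lowest ratios and the closest and the widest summit pairs, and of the 3 strongest OE sites outside the endogenous list, and 1 sequence and 1 endogenous peak that these rules name are not reported here. Alternatives were other scalings and summaries of the CEN ratio, stricter thresholds, other overlaps, and peak midpoints. The computations used Python 3.11.15, numpy 2.4.6, scipy 1.17.1 and matplotlib 3.10.9.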

Additional observations from a re-analysis of the deposited data

How the results depend on the processing

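With 1 library per strain, leaving out a replicate could not be done, and no difference has a replicate error. No paired analysis was possible because each group has 1 library and no result comes from a test. The CEN values moved most with scaling: with each fold enrichment taken relative to the non-CEN median of its list, the median ratio of OE to endogenous CEN enrichment was 0.654 in place of 0.919, and 0 in place of 4 centromeres were higher in the OE list (6 without the pseudocount, as CEN6 and CEN16 lie near 1). That median is itself set by the threshold of each list. The ratio of the 2 medians was 0.951. The mean distance between paired CEN summits was 42.1 bp, against a median of 24 bp, and with summits counted within 50 bp of the centromere, 16 OE and 12 endogenous summits were counted, against 10 and 5. A minimum -log10 q of 5 left 12 of the 30 OE sites and a minimum fold enrichment of 2 left 10. With that q in both lists, 8 OE sites were held by the endogenous list and 8 endogenous peaks by the OE list. The count of endogenous peaks expected at OE depth was 41 at a minimum -log10 p of 5, and 115 as a sum of binomial probabilities, against 67. The other settings tried (pseudocount, 1 depth ratio, mean width, midpoints, other overlaps) kept counts within 1.5 times and ratios within the spread. Chosen after seeing the data, leaving out the CUP1 repeat left 29 sites, 15 of them held, and leaving out CEN4 and CEN13 gave a median ratio of 0.939. Pileups of 61 to 91 fragments at most OE sites limit what can be said of any single site.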
